A study of Homo sapiens with 6 samples.

Results

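The Sprouty, SPRED and dual-specificity phosphatase (DUSP) genes that restrain RAS and MAP kinase signalling were examined in MDA-MB-231 cells depleted of ING2. The members were 10 genes chosen by name, SPRY1, SPRY2, SPRY4, SPRED1, SPRED2, DUSP1, DUSP4, DUSP5, DUSP6 and DUSP10, out of 19777 genes on the array. All 22 probe sets that the annotation assigns to 1 of these genes and to no other gene were used. The rule itself uses no measured value, but the genes were chosen with earlier results of these data known. A probe set is a group of short oligonucleotides on the array that together give 1 intensity for a transcript.

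MDA-MB-231 is a widely used established line from a human triple-negative breast tumour. Cells of 3 samples were transfected with non-targeting siRNA (controls), and those of 3 samples with siRNA to ING2 (knockdown). ING2 is a chromatin reader in a SIN3 deacetylase complex. A single ING2 siRNA was used, all samples had the same lipid transfection agent, and no further allele or treatment is named. RNA was collected at day 4 by one label and at day 3 by another. Since separate cultures are not stated, p-values refer to the spread among these 6 samples, which may be technical, and their small number limits precision.

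Growth factor receptors switch on RAS, which activates the kinases RAF, MEK and ERK in turn. ERK then induces genes that shut the pathway down again. Sprouty proteins act between the receptors and RAF, SPRED proteins bring the RAS inactivator neurofibromin to the membrane, and DUSPs remove phosphate from the MAP kinases themselves, so that transcripts of several members are widely read as a gauge of ERK output.

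After ING2 siRNA the members did not move together. SPRY2 fell to 79.1% of control, SPRY4 rose to 125% of control in the test over genes, 2 of 3 DUSP6 probe sets fell, 1 of 3 SPRED1 probe sets fell, and 1 of 3 DUSP1 probe sets rose. No member probe set differed by more than 1.51-fold. In bulk RNA, a large change in some cells and a small one in all cannot be told apart. With 1 probe set per gene, the one with the highest mean intensity, 1 of the 10 genes was higher and 1 lower at a Benjamini-Hochberg adjusted p under 0.05 in limma, where 8.29% of all genes passed (3.62% higher and 4.67% lower). With each probe set tested on its own, 1 of 22 was higher and 4 were lower (5 in all, where 7.3% of all passed), against 2.18% and 5.12% of the 41091 probe sets that name 1 gene. The median log2 change was -0.10 over the 10 genes and 0.06 over all genes, and -0.12 over the 22 probe sets and 0.05 over all such probe sets. The median over the 10 genes depended on scaling, with -0.17 after median centring, -0.02 after cyclic loess and 0.02 after quantile normalization.

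**Figure D1:**
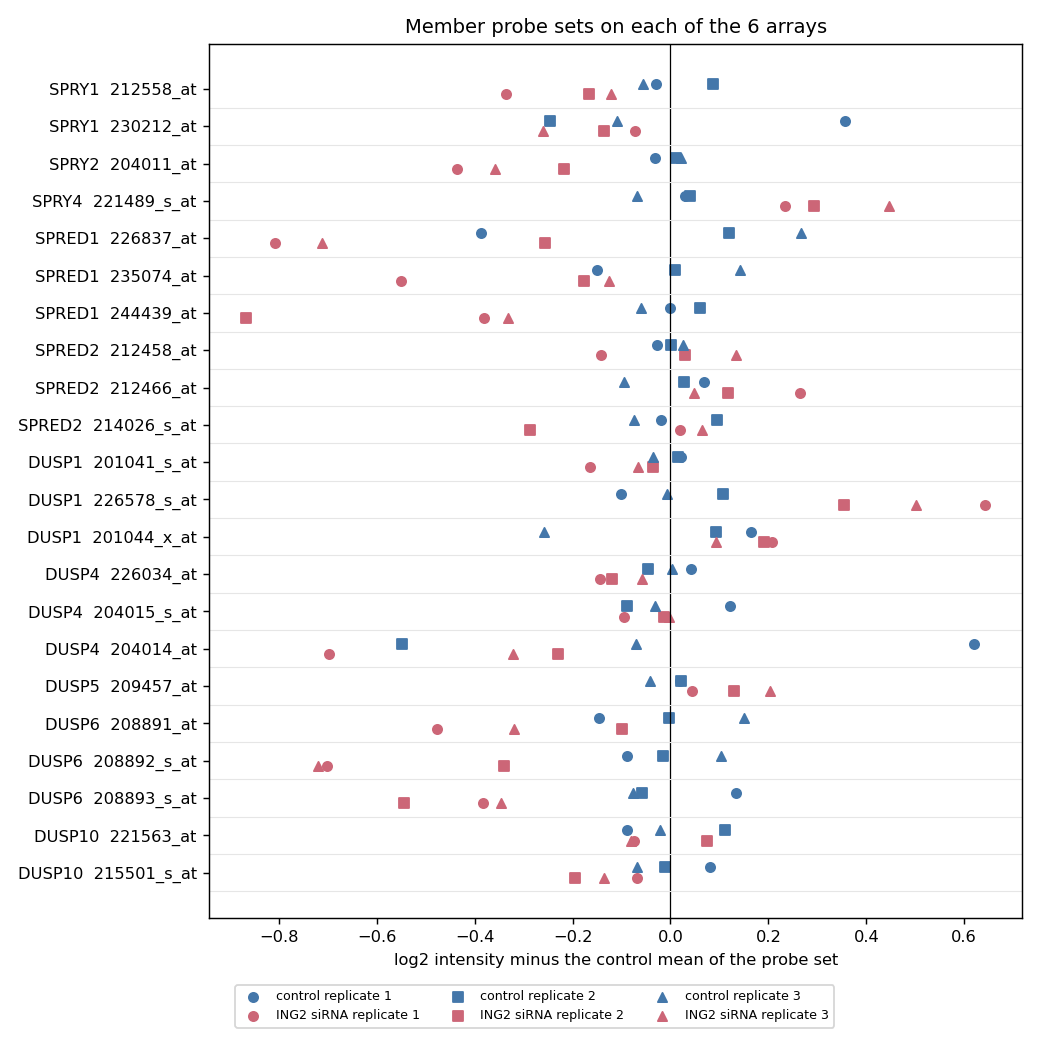
Each row is 1 probe set and each point 1 array, as log2 intensity minus the mean of the 3 control arrays (blue, control; red, ING2 siRNA; the symbol gives the replicate). Red points lie left of all blue points for SPRY1 212558_at, SPRY2, SPRED1 244439_at, DUSP4 226034_at and 2 DUSP6 probe sets. DUSP1 201041_s_at was also apart as lower, though its nearest control and knockdown arrays both round to 422 units. Red points lie right of all blue points for SPRY4, DUSP5 and DUSP1 226578_s_at.

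The knockdown was seen in the target itself, since its brighter probe set stood at 12.5% and its dimmer one at 36.5% of the control level. Log2 changes across the array depended on intensity. When genes were split by intensity into 10 equal bins, the median change was 0.15 among dim genes and -0.09 among the brightest, and the 10 member genes lay between percentiles 62.7 and 95.1 of intensity. The log2 excess of the GAPDH 3' over 5' control probe sets was 0.205 ± 0.015 in controls against 0.316 ± 0.042 in the knockdown arrays (SD, n = 3; p = 0.1 by exact permutation, the smallest possible). For ACTB it was 0.49 ± 0.11 and 0.541 ± 0.096 (SD, n = 3; exact permutation p = 0.6). The part of these in the changes of members was not tested. Scaling moved the balance of all calls: 43.7% of called genes were higher in the deposited values, 15.4% after median centring of each array and 60.4% after quantile normalization. All 5 mesenchymal markers were bright, at percentiles 90.1 (PLAUR) to 99.6 (VIM) of intensity over genes. The 6 luminal markers spread from 5.5 (PGR) over 24.3 (CDH1), 40.9 (ESR1) and 55.6 (GATA3) to 97.7 (KRT19), though brightness also depends on the probes. Of the cell identity markers, 2 of 5 fibroblast genes (DCN higher, LUM lower), 1 of 5 blood cell genes (LYZ lower) and none of 6 luminal and 5 mesenchymal genes passed (limma; 1 and 2 at an unadjusted p under 0.05). Over all genes 8.29% passed. DCN did not pass after median centring, quantile normalization or cyclic loess or with the mean of its probe sets, nor LYZ with 16 added to the intensity or with that mean, and LUM and LYZ each had a second probe set above 0 (0.07 and 0.05). LUM and LYZ passed when control replicate 1 or ING2 siRNA replicate 2 was left out, DCN only without control replicate 1, and none without any other array. In those other fits 2 or 3 of all 19777 genes passed. Summed intensities were 678 to 776 in controls and 720 to 731 in the knockdown for fibroblast genes, 635 to 701 and 626 to 687 for blood genes, 5751 to 7321 and 6066 to 6325 for luminal genes, and 33141 to 35074 and 30357 to 33451 for mesenchymal genes. No marker was at 0, and their part in the changes was not tested.

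Among the Sprouty genes, SPRY2 and SPRY4 went in opposite directions. SPRY2, which binds the ubiquitin ligase CBL and the adaptor GRB2, read 1103, 1135 and 1143 intensity units in the controls against 833, 969 and 879 in the knockdown arrays (probe set 204011_at). All treated arrays lay below all controls. The log2 change was -0.34 (SE 0.09, 95% interval -0.53 to -0.15, n = 3 per group, limma adjusted p = 0.0420 over genes and 0.0490 over probe sets). SPRY4, a family member that also acts upstream of RAF, read 1403, 1413 and 1312 units in the controls against 1617, 1685 and 1873 in the knockdown arrays (221489_s_at). Here all treated arrays lay above all controls. The log2 change was 0.32 (SE 0.09, 95% interval 0.13 to 0.52, limma adjusted p = 0.0486 over genes), but over probe sets the adjusted p was 0.0580.

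Within single arrays, the log2 intensity of SPRY4 minus that of SPRY2 was 0.35, 0.32 and 0.20 in the controls and 0.96, 0.80 and 1.09 in the knockdown arrays. The mean thus moved from 0.29 ± 0.08 to 0.95 ± 0.15 (SD, n = 3), a shift of 0.66 log2 units that scaling of an array as a whole cannot alter. This pair was picked after the values were seen, so the shift is given without a test. Genes as bright as SPRY2 and SPRY4, which share an intensity bin, had a median log2 change of -0.09. Against that median SPRY2 lay 0.25 lower and SPRY4 0.41 higher on the log2 scale.

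The calls on both genes depended on scaling and on single arrays. After quantile normalization SPRY2 had a log2 change of -0.22 (limma adjusted p = 0.10) and after cyclic loess -0.25 (0.0833), while SPRY4 had 0.45 (0.0282) and 0.42 (0.0335). After median centring SPRY2 had -0.41 (limma adjusted p = 0.0307) and SPRY4 0.25 (0.0966). SPRY2 passed without control replicate 1 (limma adjusted p = 0.0435) or ING2 siRNA replicate 2 (0.0290), and not without control replicate 2 (0.127), control replicate 3 (0.126), ING2 siRNA replicate 1 (0.114) or ING2 siRNA replicate 3 (0.137). SPRY4 passed in none of these 6 fits, with limma adjusted p of 0.0510 and 0.0546 without control replicate 1 and ING2 siRNA replicate 2, and of 0.124, 0.151, 0.0873 and 0.152 without control replicates 2 and 3 and ING2 siRNA replicates 1 and 3.

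SPRY1, the other Sprouty member, did not pass. Its brighter probe set, 212558_at, read 633, 686 and 621 units in the controls against 512, 576 and 594 in the knockdown arrays, with no overlap between the groups, a log2 change of -0.21 and a 95% interval of -0.40 to -0.01 (limma adjusted p = 0.137). Its dimmer probe set, 230212_at, overlapped between the groups (212 to 322 and 210 to 239 units) with a log2 change of -0.15. Groups without overlap were common: 6 of the 10 member genes had them (2 higher and 4 lower), beside 36.5% of all genes (22.8% higher and 13.8% lower).

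The 250 bases before an annotated start of SPRY2 and SPRY4 are printed because these genes moved in opposite directions (RefSeq, GRCh38.p14, both on the minus strand, chr13:80341127-80341376 for the outermost of 3 listed SPRY2 starts and chr5:142324248-142324497 for SPRY4). Both are given 5′ to 3′ on the gene's strand, and capitals would mark a motif match.

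SPRY2: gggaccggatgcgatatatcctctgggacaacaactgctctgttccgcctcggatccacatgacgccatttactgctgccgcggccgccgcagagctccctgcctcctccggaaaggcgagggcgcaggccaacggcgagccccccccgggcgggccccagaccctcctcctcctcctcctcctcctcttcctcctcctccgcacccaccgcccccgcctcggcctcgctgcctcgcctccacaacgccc

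SPRY4: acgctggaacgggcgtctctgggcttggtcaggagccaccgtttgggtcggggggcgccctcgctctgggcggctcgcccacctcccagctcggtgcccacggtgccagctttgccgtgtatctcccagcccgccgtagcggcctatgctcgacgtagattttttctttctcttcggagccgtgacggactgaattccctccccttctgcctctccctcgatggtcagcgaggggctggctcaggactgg

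Both windows lie above the median G and C content of all windows of this length, 58.0%, with 70.4% in SPRY2 and 65.6% in SPRY4. Neither holds any of the 3 motifs searched on both strands: the AP-1 element TGANTCA, present in 6.57% of 35116 windows, the cyclic AMP response element (CRE) letters TGACGTC, in 3.12%, or the ETS factor letters GGAAGT, in 19.5%. At another listed SPRY2 start the ETS letters begin 6 bases before the start. Of the 10 members, 8 had windows in this table, DUSP4 and DUSP5 being the others, and of their 13 windows 0 held the AP-1 letters, 1 the CRE letters and 1 the ETS letters.

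SPRED1 had the lowest log2 change of any member, at a probe set that did not pass. SPRED1 partners neurofibromin, and its germline loss causes Legius syndrome. Probe set 226837_at read 328, 466 and 516 units in the controls against 245, 359 and 262 in the knockdown arrays. The groups overlapped, because the lowest control (replicate 1) lay under the highest treated array (replicate 2). The log2 change was -0.59 (SE 0.18, 95% interval -0.99 to -0.19, limma adjusted p = 0.0629 over genes and 0.0762 over probe sets). Without control replicate 1 the change over genes was -0.78 (limma adjusted p = 0.0193) and without ING2 siRNA replicate 2 it was -0.76 (0.0251), each past the threshold.

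The other SPRED1 probe sets had values of the same sign. The dimmest, 244439_at, at percentile 22.6 of intensity, read 55.6, 58.0 and 53.3 units in the controls against 42.7, 30.5 and 44.2 in the knockdown arrays, with no overlap. It fell by 0.53 log2 units (SE 0.14, limma adjusted p = 0.0483 over probe sets), where genes of like intensity had a median change of 0.15. Without any 1 array its limma adjusted p ran from 0.0513 (ING2 siRNA replicate 2 left out) and 0.0657 (control replicate 1) over 0.0854 (ING2 siRNA replicate 1), 0.0933 (ING2 siRNA replicate 3) and 0.115 (control replicate 3) to 0.138 (control replicate 2). The remaining probe set, 235074_at, overlapped between the groups (289 to 354 and 219 to 294 units) with a log2 change of -0.28 (limma adjusted p = 0.169). Averaging the 3 probe sets of SPRED1 gave a log2 change of -0.47 and passed (limma adjusted p = 0.0169 over genes).

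SPRED2, the paralogue, had no probe set that passed. Its brightest probe set, 212458_at, read 551, 562 and 571 units in the controls against 509, 573 and 616 in the knockdown arrays, a log2 change of 0.01 with a 95% interval of -0.19 to 0.21. The interval leaves room for a change of about that size in either direction. The dimmer SPRED2 probe sets had log2 changes of 0.14 (212466_at) and -0.07 (214026_s_at), also with overlapping groups.

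**Figure D2:**
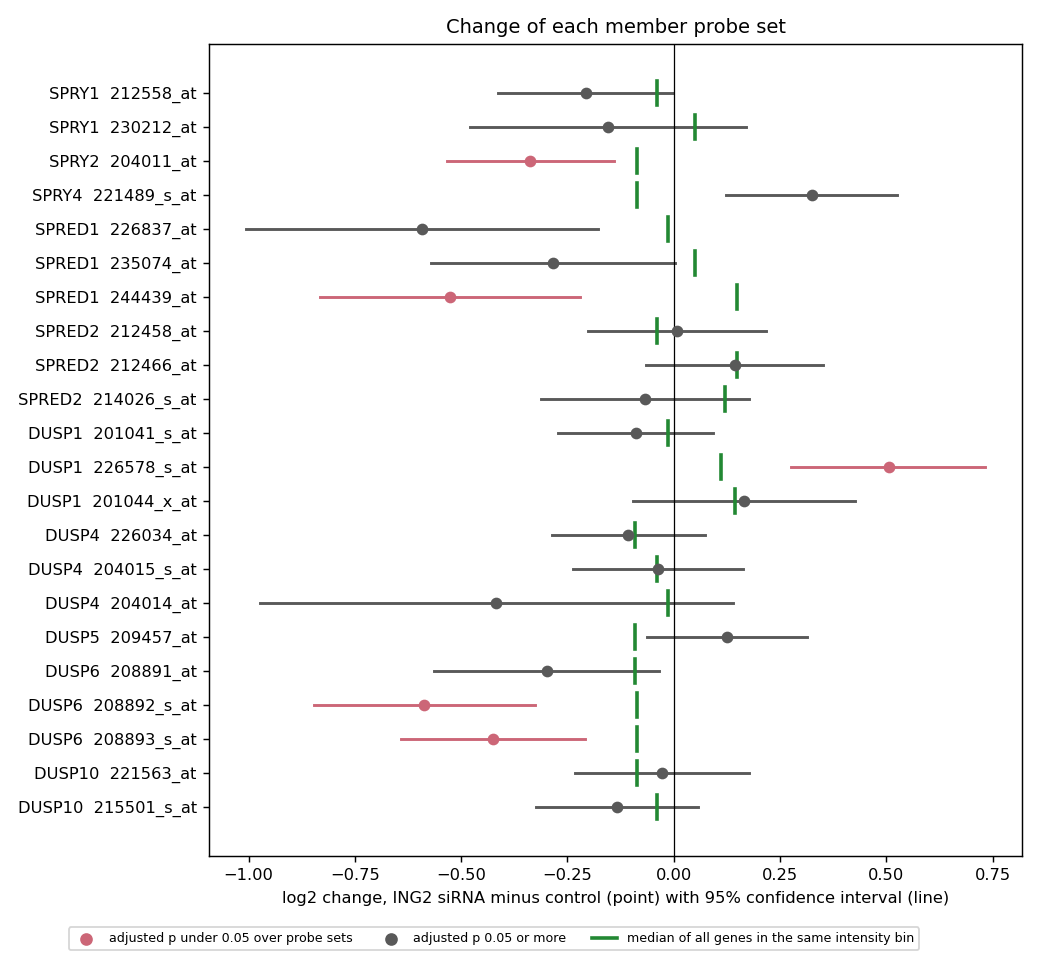
Points give the log2 change of each member probe set (ING2 siRNA minus control), lines its 95% confidence interval in limma and green ticks the median change of genes in the same intensity bin. The 5 red rows passed an adjusted p of 0.05 over 41091 probe sets, 4 of them below 0 and DUSP1 226578_s_at above 0.

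DUSP6, the cytoplasmic phosphatase specific for ERK, was lower at all of its 3 probe sets by value and past the threshold at 2. Probe set 208892_s_at read 1714, 1803 and 1959 units in the controls against 1121, 1440 and 1107 in the knockdown arrays, with no overlap. It fell by 0.59 log2 units to 66.6% of control (SE 0.12, limma adjusted p = 0.0231 over probe sets). Probe set 208893_s_at read 1388, 1216 and 1201 units in the controls against 970, 868 and 995 in the knockdown arrays, again apart, and fell by 0.43 log2 units to 74.5% of control (SE 0.10, limma adjusted p = 0.0339 over probe sets). The brightest, 208891_at, read 2369, 2615 and 2911 units against 1885, 2449 and 2101 units. Its groups overlapped, and a log2 change of -0.30 did not pass (95% interval -0.55 to -0.04, limma adjusted p = 0.107 over genes). Genes as bright as these probe sets had a median change of -0.09.

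The call on DUSP6 therefore depended on which probe set stood for it, and also on the fit. By its brightest probe set DUSP6 passed as lower with array weights (-0.34, limma adjusted p = 0.0493 over genes). It also passed without ING2 siRNA replicate 2 (-0.40, limma adjusted p = 0.046 over genes), and in no other alternative that kept this probe set. Represented by its most variable probe set (interquartile range), DUSP6 passed as lower at -0.59 (limma adjusted p = 0.0156 over genes), and with the mean of its probe sets at -0.44 (0.0125). The range was taken over all 6 arrays, so that choice favours probe sets that differ between the groups, and its p-values are biased towards calls. With it 16.5% of all genes passed, against 8.29% by the brightest probe set. The per-array difference between 208892_s_at and 208891_at was -0.53 ± 0.05 log2 units in controls against -0.81 ± 0.10 in the knockdown (SD, n = 3, exact two-sided permutation p = 0.1, the smallest possible, 0.4 adjusted over 12 such pairs), without overlap between the groups. After quantile normalization and cyclic loess 208892_s_at still passed and 208893_s_at did not. Of the fits that left out 1 array, 208892_s_at passed without control replicate 1 (limma adjusted p = 0.0225) or ING2 siRNA replicate 2 (0.0131). It did not pass without control replicates 2 (0.0731) or 3 (0.0894) or ING2 siRNA replicates 1 (0.0801) or 3 (0.103), while 208893_s_at passed in none (control replicates 1 to 3, 0.0520, 0.0866 and 0.0847; ING2 siRNA replicates 1 to 3, 0.0844, 0.0593 and 0.0951).

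DUSP1, a nuclear phosphatase that favours p38 and JNK and is an immediate early gene, gave values on both sides of 0. Probe set 226578_s_at read 102, 118 and 109 units in the controls against 171, 140 and 155 in the knockdown arrays. With all treated arrays above all controls it rose by 0.50 log2 units to 142% of control (SE 0.10, 95% interval 0.28 to 0.73, limma adjusted p = 0.0245 over probe sets), against a median of 0.11 for genes of like intensity. The brightest DUSP1 probe set, 201041_s_at, read 439, 437 and 422 units in the controls against 386, 422 and 413 in the knockdown arrays, a log2 change of -0.09 with a 95% interval of -0.27 to 0.08 (limma adjusted p = 0.435 over genes). The third, 201044_x_at, overlapped between the groups with a log2 change of 0.16. Its suffix marks probes that may also match other sequences.

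Between DUSP1 probe sets the per-array difference of 226578_s_at to 201041_s_at moved from -1.98 ± 0.12 to -1.39 ± 0.21 log2 units (SD, n = 3, exact two-sided permutation p = 0.1, the smallest possible, 0.4 adjusted over 12 pairs), and over the 6 arrays their log2 values showed a Pearson correlation of -0.86, given as a description of arrays that share the group difference. With 226578_s_at, its most variable probe set, standing for the gene, DUSP1 passed as higher (0.50, limma adjusted p = 0.0174 over genes). As for DUSP6, that choice favours probe sets that differ between the groups. No direction is given for the gene as a whole. The call on 226578_s_at held without control replicate 1 (limma adjusted p = 0.0372) or ING2 siRNA replicate 2 (0.0235), and was lost without control replicate 2 (0.0557), control replicate 3 (0.0853), ING2 siRNA replicate 1 (0.0791) or ING2 siRNA replicate 3 (0.0968).

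The upstream windows of DUSP1 and DUSP6, the phosphatase genes with called probe sets, are printed in the same way (RefSeq, GRCh38.p14, minus strand, chr5:172771196-172771445 and chr12:89352502-89352751). Capitals mark the CRE letters, which begin 172 and 125 bases before the DUSP1 start; at the second place the matches of both strands overlap and were counted as 1. CREs bind CREB, a factor that responds to cyclic AMP and to several kinases.

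DUSP1: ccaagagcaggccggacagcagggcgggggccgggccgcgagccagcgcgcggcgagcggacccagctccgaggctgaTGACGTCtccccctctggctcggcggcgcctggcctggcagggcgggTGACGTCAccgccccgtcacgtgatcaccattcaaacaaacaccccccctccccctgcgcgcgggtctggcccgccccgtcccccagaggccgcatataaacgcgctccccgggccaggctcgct

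DUSP6: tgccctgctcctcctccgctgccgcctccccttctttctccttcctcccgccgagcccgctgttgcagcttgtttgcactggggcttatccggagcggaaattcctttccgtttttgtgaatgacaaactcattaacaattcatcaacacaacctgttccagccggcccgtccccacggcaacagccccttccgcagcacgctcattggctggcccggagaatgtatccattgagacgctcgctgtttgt

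No AP-1, CRE or ETS letters as searched lie in the DUSP6 window. A match is a description of the letters, and says nothing of binding in these cells.

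The other DUSP members had no probe set that passed. DUSP4, a nuclear phosphatase of ERK and JNK, read 3461 to 3678 units in the controls against 3232 to 3429 in the knockdown arrays at its brightest probe set, 226034_at, a log2 change of -0.11 (95% interval -0.28 to 0.06, limma adjusted p = 0.348). The groups did not overlap, but genes as bright had a median of -0.09. A further DUSP4 probe set, 204014_at, scattered widely in the controls (728, 324 and 451 units) and had a log2 change of -0.42 with a 95% interval of -0.97 to 0.14. The DUSP4 probe set 204015_s_at had a change of -0.04.

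DUSP5, a nuclear phosphatase specific for ERK, read 1943, 1946 and 1863 units in the controls against 1975, 2097 and 2207 in the knockdown arrays. Treated arrays lay above all controls, yet the log2 change of 0.13 did not pass (95% interval -0.05 to 0.30, limma adjusted p = 0.293). DUSP10, which acts on p38 and JNK, had log2 changes of -0.03 (221563_at, 95% interval -0.23 to 0.17) and -0.13 (215501_s_at), both with overlapping groups. These intervals do not show that the 3 genes were unaffected.

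**Figure D3:**
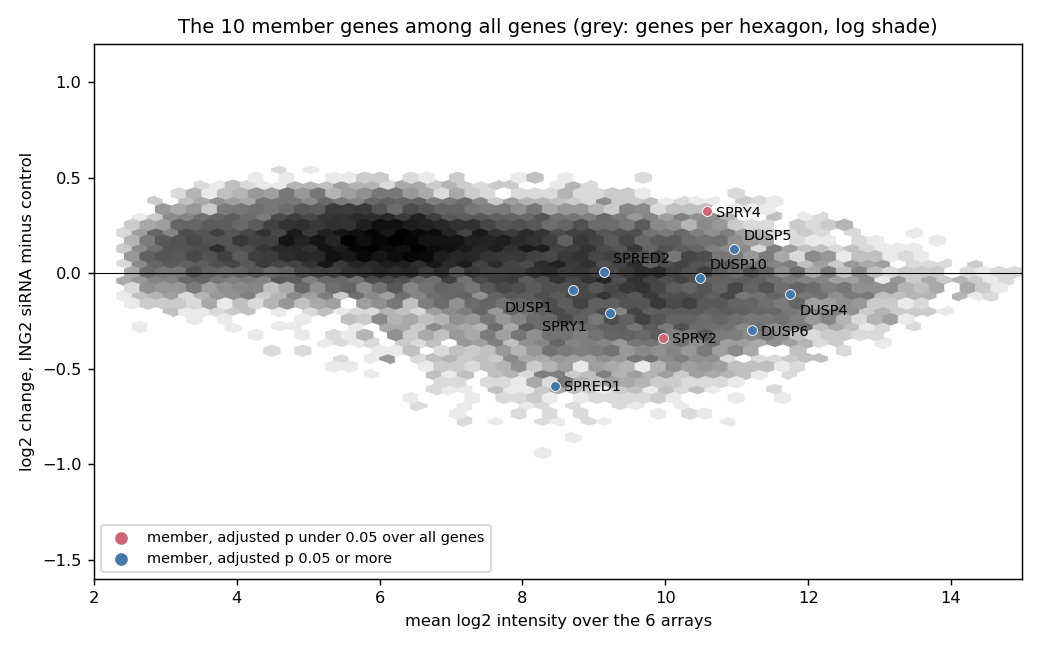
Log2 change against mean log2 intensity for all genes (grey hexagons, darker for more genes, on a log shade) and the 10 member genes at their brightest probe set (red, adjusted p under 0.05). SPRY4 lies above and SPRY2 below 0 in the bright part of the array, where the bulk of genes lies slightly below 0, and ING2 is below the plotted range.

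Over the whole family, values of 16 of 22 probe sets were below 0 and those of 6 above, and relative to the median of their intensity bin 15 lay below and 7 above. The number below 0 was 17 after median centring, 13 after cyclic loess and 12 after quantile normalization. Groups did not overlap in 10 of 22 probe sets, 3 higher and 7 lower, where 34.4% of all probe sets naming 1 gene had groups apart (20% higher and 14.4% lower). Of the 7 members with more than 1 probe set, SPRY1, SPRED1, DUSP4, DUSP6 and DUSP10 had all values on the same side of 0, and SPRED2 and DUSP1 did not. Of 12 pairs of a brightest and another probe set, 3 had a difference whose groups did not overlap, both of DUSP1 and 1 of DUSP6. The share of such pairs over the whole array was not computed, so this count is not read as an excess. Across the 6 arrays control replicate 1 was the lowest control at all SPRED1 and DUSP6 probe sets but 244439_at and 208893_s_at, and ING2 siRNA replicate 2 was the highest treated array at 226837_at, 208891_at and 208892_s_at.

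Related genes of the same families were measured for comparison, from lists chosen with earlier results of these data known. Of 10 other Sprouty, SPRED and DUSP genes, 2 were higher and 0 lower, where 3.62% of all genes were higher and 4.67% lower. All 10 had values above 0 (8 after median centring, 9 after quantile normalization or cyclic loess). Their median was 0.12, beside 0.06 over all genes. DUSP8, a phosphatase of JNK and p38, read 302, 255 and 308 units in the controls against 399, 394 and 396 in the knockdown arrays and rose by 0.46 log2 units (SE 0.09, limma adjusted p = 0.0266). SPRY3 rose by 0.45 from a mean of 39.3 units in controls (limma adjusted p = 0.0245), where genes of like intensity had a median of 0.15. Both DUSP8 probe sets had values above 0, the lower being 0.22.

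Upstream in the pathway no listed gene passed in the deposited values, where 8.29% of all genes did, but several lay close to the threshold. Among 14 receptors, adaptors, RAS proteins and RAS regulators 0 passed in limma (3 at an unadjusted p under 0.05), with a median of -0.02 (-0.09 after median centring and 0.01 after quantile normalization). The growth factor receptor FGFR1 had a log2 change of 0.32 (limma adjusted p = 0.0509, 935, 964 and 913 units against 1070, 1177 and 1276), and its 7 probe sets ranged from -0.14 to 0.32. Of 10 other settings that kept all arrays FGFR1 passed in 8, but not after median centring (0.25, limma adjusted p = 0.110) or with the mean of its probe sets (0.07, 0.470). With 1 array left out FGFR1 passed in 0 of 6 fits. The phosphatase gene PTPN11, whose product SHP2 passes receptor signals to RAS, had -0.37 (0.0541), and its probe sets ranged from -1.05 to 0.32. PTPN11 also passed in 8 of those 10 settings, with -0.44 after median centring (limma adjusted p = 0.0432) and -1.05 at its most variable probe set (0.00234), but not after quantile normalization (-0.24, 0.139) or cyclic loess (-0.26, 0.120). With 1 array left out PTPN11 passed in 2 of 6 fits. Of 9 RAF-MEK-ERK kinases and scaffolds 0 passed in limma (3 at an unadjusted p under 0.05), with a median of 0.07. Such p-values were common over all genes, since in limma an unadjusted p of 0.0479 (KSR1) gave an adjusted p of only 0.148. Counts at an unadjusted p under 0.05, for lists and members alike, are therefore not read as an excess. That median was 0.18 after quantile normalization and 0.16 after cyclic loess, where the median of all genes was 0.06 and 0.03, and 4 of the 9 values were above 0 after median centring. SHOC2, a scaffold of RAF activation, had -0.36 (limma adjusted p = 0.0909). It passed with the replicate block (0.0214), with array weights (0.0400) and without control replicate 1 (0.0381) or ING2 siRNA replicate 2 (0.0452). KSR1, another scaffold, had 0.21 (limma adjusted p = 0.148) and passed in none of the alternatives. Of 8 binding partners of Sprouty and SPRED proteins 0 passed in the deposited values (limma; 3 at an unadjusted p under 0.05), with a median of -0.10 (-0.17 after median centring, -0.04 after quantile normalization and -0.05 after cyclic loess). CAV1, a membrane scaffold, had -0.29 (limma adjusted p = 0.0687). It passed in 1 of 6 fits that left out 1 array and in 5 of the 10 other settings, among them array weights (0.0288) and the mean of its probe sets (-0.31, 0.0297). The phosphatase subunit PPP2CA had -0.20 (limma adjusted p = 0.104) and passed in 3, with -0.49 at its most variable probe set (0.0365), with -0.33 as the mean of its probe sets (0.0316) and under an intensity trend with robust eBayes (0.0486). It passed in 0 of 6 fits that left out 1 array. For PTPN11 and PPP2CA too, choosing the most variable probe set favours group differences.

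Other outputs of ERK signalling moved in both directions. Of 18 such genes 2 were higher and 1 lower, where 3.62% of all genes were higher and 4.67% lower. Values of 14 were above 0 (10 after median centring, 14 after quantile normalization and 14 after cyclic loess). Their median was 0.15, beside 0.06 over all genes, which is itself above 0. Relative to the median of their intensity bin 14 lay above and 4 below, with a median difference of 0.15. FOSL1, an AP-1 subunit induced by ERK, read 1066, 1059 and 1043 units in the controls against 1369, 1475 and 1915 in the knockdown arrays and rose by 0.57 (SE 0.12, limma adjusted p = 0.0295). The immediate early gene IER2 rose by 0.35 (limma adjusted p = 0.0480; 0.282 as log2 change after median centring, where it did not pass). ETV1, an ETS factor, read 591, 624 and 746 units against 424, 516 and 485 units and fell by 0.46 (SE 0.11, limma adjusted p = 0.0385), with values below 0 at all 5 of its probe sets, but did not pass after quantile normalization or cyclic loess. The next list held 13 genes for p38 and JNK kinases, the substrates of DUSP1, DUSP10 and DUSP8, their activators and a downstream kinase. Of these, 1 was higher and 0 lower (7 at an unadjusted p under 0.05 in limma), where 3.62% of all genes were higher and 4.67% lower. The list had a median of 0.03 and, after median centring, of -0.04. The called gene was MAPKAPK2, the kinase downstream of p38 (0.29, limma adjusted p = 0.0486), which passed neither after median centring nor with the mean of its probe sets (0.14). Of these 6 called genes, SPRY3, DUSP8, FOSL1 and ETV1 passed when control replicate 1 or ING2 siRNA replicate 2 was left out, IER2 and MAPKAPK2 only without control replicate 1, and none when any other array was left out. In those other fits 2 or 3 of all 19777 genes passed.

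**Figure D4:**
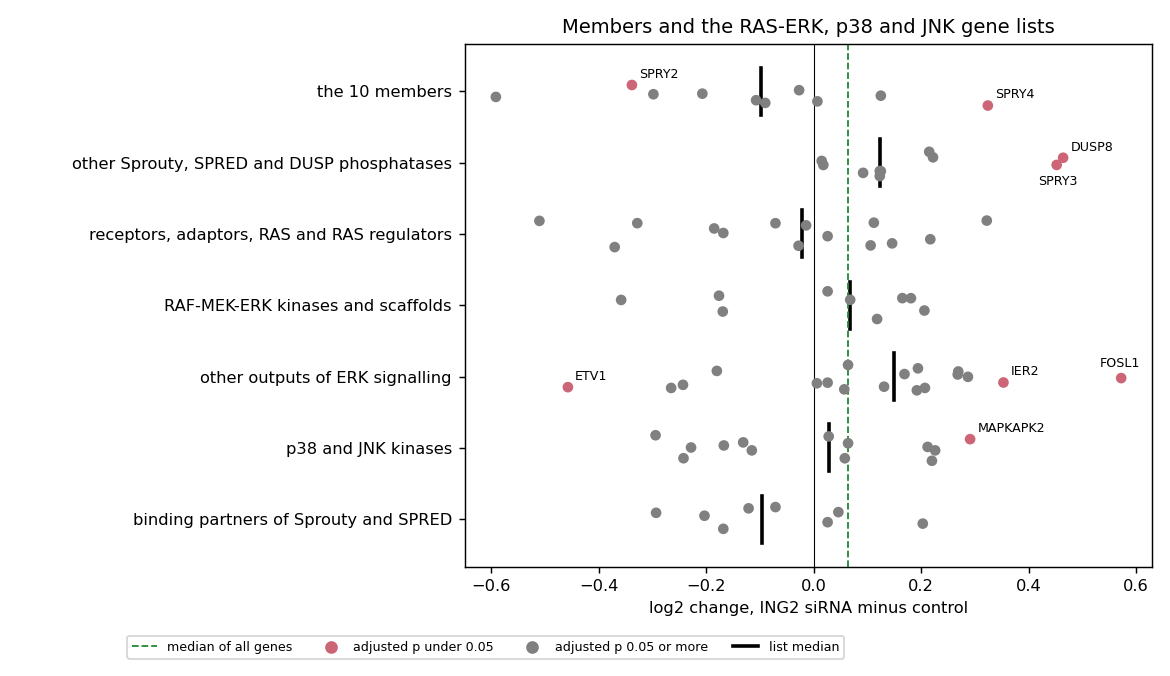
Log2 change of each gene (points; red, adjusted p under 0.05 over 19777 genes) in the members and in 6 lists, with the median of each list (black bar) and of all genes (dashed). Vertical scatter within a row has no meaning, and the called genes are named.

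**Figure D5:**
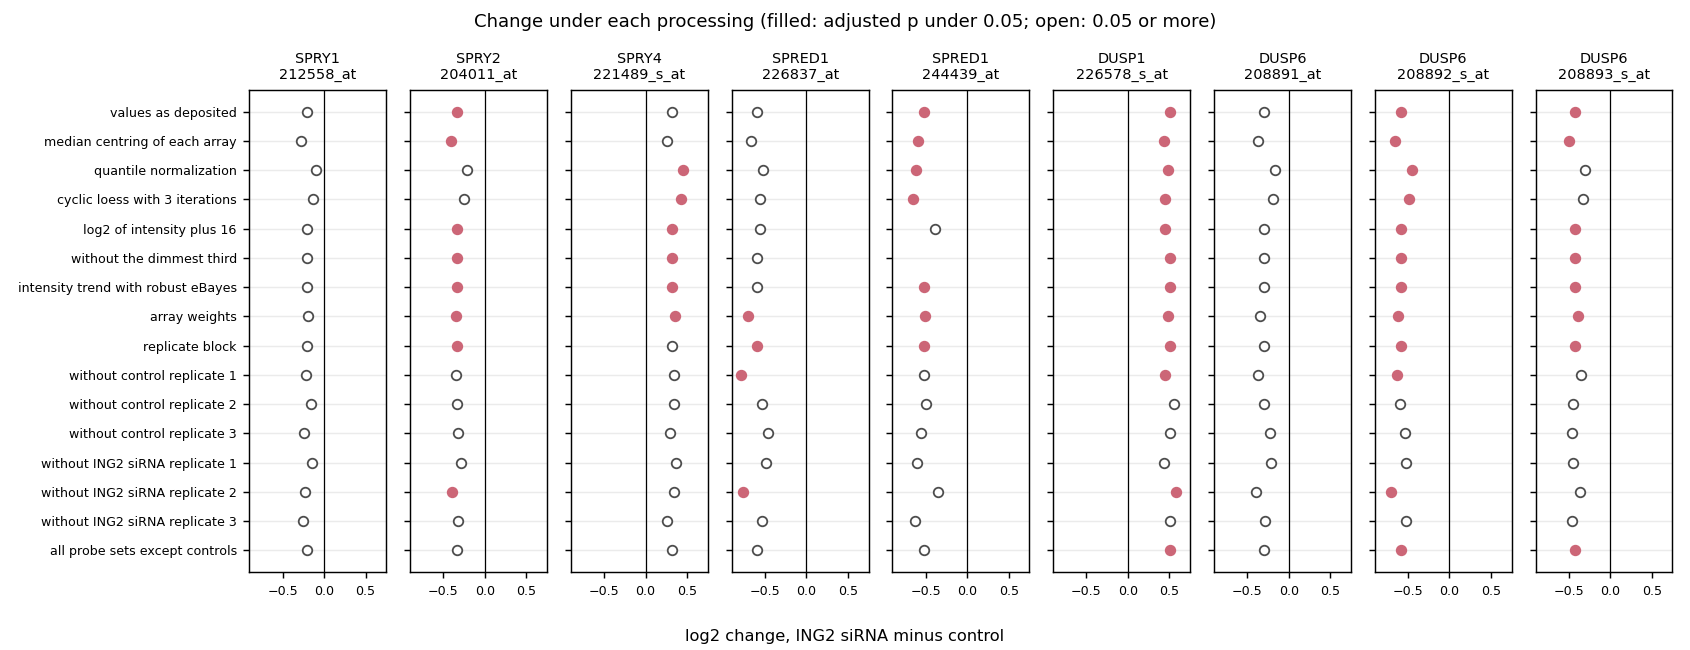
Log2 change of the 9 member probe sets with an unadjusted p under 0.05, under each processing, filled where the adjusted p over all probe sets tested was under 0.05. No point crosses 0, and calls are lost in most fits that leave out 1 array.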

How the data were processed

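Labelled cRNA from each of 6 samples was read on its own 3' expression array, per the labels' protocols. The authors deposited linear intensity values of 54675 probe sets. The submitters' processing notes name RMA and R 2.12; how background and scale were treated is not given. Array medians were 75.7 to 81.5 intensity units.

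Deposited values were log2-transformed as they are, unfiltered. Gene names came from the 2016 platform annotation and current RefSeq symbols (GRCh38.p14), which covered 19735 of 19777 genes. Probe sets for controls (62), several genes (1801) or no listed gene (11721) were not tested.

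The groups were compared in limma 3.58.1 (R 4.3.3) without covariates and with Benjamini-Hochberg adjustment, over 19777 genes by their brightest probe set and again over 41091 probe sets; the scripts were checked on simulated data. Probe set pairs were compared by exact permutation. Named were all members, ING2 and, per list, up to 3 called rises and 3 called falls, or the 2 smallest p where none passed. Members and lists were chosen with earlier results of these data known. Alternatives were other scalings, filters, probe set choices, thresholds and variance models, a replicate block, and each array left out.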

Additional observations from a re-analysis of the deposited data

How the results depend on the processing

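Of the 22 member probe sets, 15 kept their sign under every alternative run. The count of called member genes was 2 and lay between 0 and 3 when 1 array was left out: 2 with control replicate 1 omitted, 3 with ING2 siRNA replicate 2 omitted and 0 with any other array omitted (limma; 3 or 4 at an unadjusted p under 0.05). It was 1 after median centring (SPRY2), quantile normalization (SPRY4) and cyclic loess (SPRY4), where 8.64%, 7.96% and 5.7% of all genes passed. The count was 4 with array weights, with the most variable probe set by interquartile range and with the mean of all probe sets (where 19.5%, 16.5% and 13.2% of all genes passed). At an adjusted p under 0.01 it was 0 (5 at an unadjusted p under 0.05). The count of called member probe sets was 5 and lay between 0 and 4 when 1 array was left out, with 0 in the same 4 fits (limma; 7 to 9 at an unadjusted p under 0.05), while 0.784% to 10.0% of all probe sets passed. It was 3 when all probe sets except controls were tested, of which 5.28% passed. DUSP1 turned from -0.09 to 0.50 with the most variable probe set. That log2 change depends only on the probe set chosen. The fit chose the probe set of every gene anew, so standard errors and adjusted p-values changed as well. The cause of the other shifts was not tested. Over all genes, 1640 passed, against 2613 with control replicate 1 omitted, 2577 with ING2 siRNA replicate 2 omitted, 2 or 3 with any other array omitted, 3858 with array weights and 1128 after cyclic loess. Deviations from the group means correlated at 0.26, 0.29 and -0.02 across genes for replicate numbers 1, 2 and 3. Correlations between unlike numbers were not computed, so whether the numbers pair the samples was not settled. With the replicate block 3 member genes (SPRED1 added) and 6 member probe sets passed, where 3508 genes (17.7%) and 11.8% of all probe sets passed. Signal over background was not given, so the dimmest probe sets of SPRED1 and SPRED2 are the least certain.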
